A study of Arabidopsis thaliana with 12 samples.

Results

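Cytochrome P450 genes were followed across 4 genotypes of Arabidopsis thaliana seedlings on Affymetrix ATH1 arrays. A gene was taken as a member when a probe set was annotated to it alone under a symbol made of CYP, a family number and a subfamily letter, a form that leaves out the cyclophilins. The rule found 23 P450 genes among 13356 genes named by a single-gene probe set, each with 1 probe set. They cover a small and uneven share of the family: RefSeq (TAIR10.1) gives symbols of this form to 236 genes in 60 subfamilies, and the 23 genes fall into 5 subfamilies. CYP71B holds 19 of them, of 36 genes with that name in RefSeq, and CYP51G, CYP78A, CYP79A and CYP84A have 1 gene each. A further 2 probe sets shared by a P450 gene and another gene were left out. The remaining family members, among them most P450s of hormone synthesis, were not analysed here. A gene is termed measured below when a probe set was annotated to it alone.

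The 12 arrays measured whole seedlings that were 4 days old, raised on agar medium in days of 16 h light and 8 h dark. The double mutant sco3phyb, the single mutants phyb and sco3, and the reference line Col-0 had 3 biological replicates each. PHYB encodes the red-light receptor phytochrome B, and SCO3 (SNOWY COTYLEDON 3) is needed for normal chloroplast development in cotyledons. Which alleles were used, in which lines they were made and whether seedlings were pooled is not given in the sources.

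P450s are heme enzymes that put 1 atom of oxygen into a substrate, mostly at the endoplasmic reticulum, with electrons passed on from NADPH by a reductase. In plants they build lignin precursors, glucosinolates, sterols, terpenoids, defence compounds and several hormones, and they also break hormones down. CYP71B is a large subfamily in Arabidopsis that lies partly in rows of neighbouring genes. For most of its members no substrate is named here.

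The median log2 signal was between 4.53 and 4.74 on the 12 arrays, and with no read depth on arrays their number sets the precision. Of the fixed tissue markers, the antenna genes LHCB4.1 and LHCB4.2 and the photosystem II gene PSBW of green cotyledons and the root gene PYK10 had mean signals at percentiles 99.6 to 99.9 of the probe sets. The other root markers with values, EXPA7 and EXPA18, were at percentiles 66.5 and 75.1. The named markers of maturing seed and pollen had no named probe set. Of the 12 arrays Col-0 replicate 3 was the least like its own genotype: across probe sets its correlations with the other Col-0 arrays averaged 0.978, against 0.986 for both of these and 0.991 to 0.995 in the mutants. It had the highest Col-0 signal of CYP71B23 (6.48) and CYP71B6 (8.25) and the highest signal on any array of the root hair expansins EXPA7 (7.38) and EXPA18 (7.77).

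Signals of the 23 genes spread widely. On every array 7 of them lay above that array's median, all of them CYP71B genes (CYP71B6, CYP71B26, CYP71B34, CYP71B5, CYP71B29, CYP71B28 and CYP71B23). The lower quartile of an array, between 2.62 and 2.77, was passed on all 12 arrays by 11 genes and on some arrays by 4. The other 8 genes (CYP79A2, CYP71B21, CYP71B25, CYP71B27, CYP71B24, CYP71B16, CYP71B31 and CYP71B30P) never passed it, with signals between 1.70 and 2.63, and cannot be told from background. No detection call is given for any probe set, and the signals of different probe sets also depend on their probes.

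**Figure D1:**
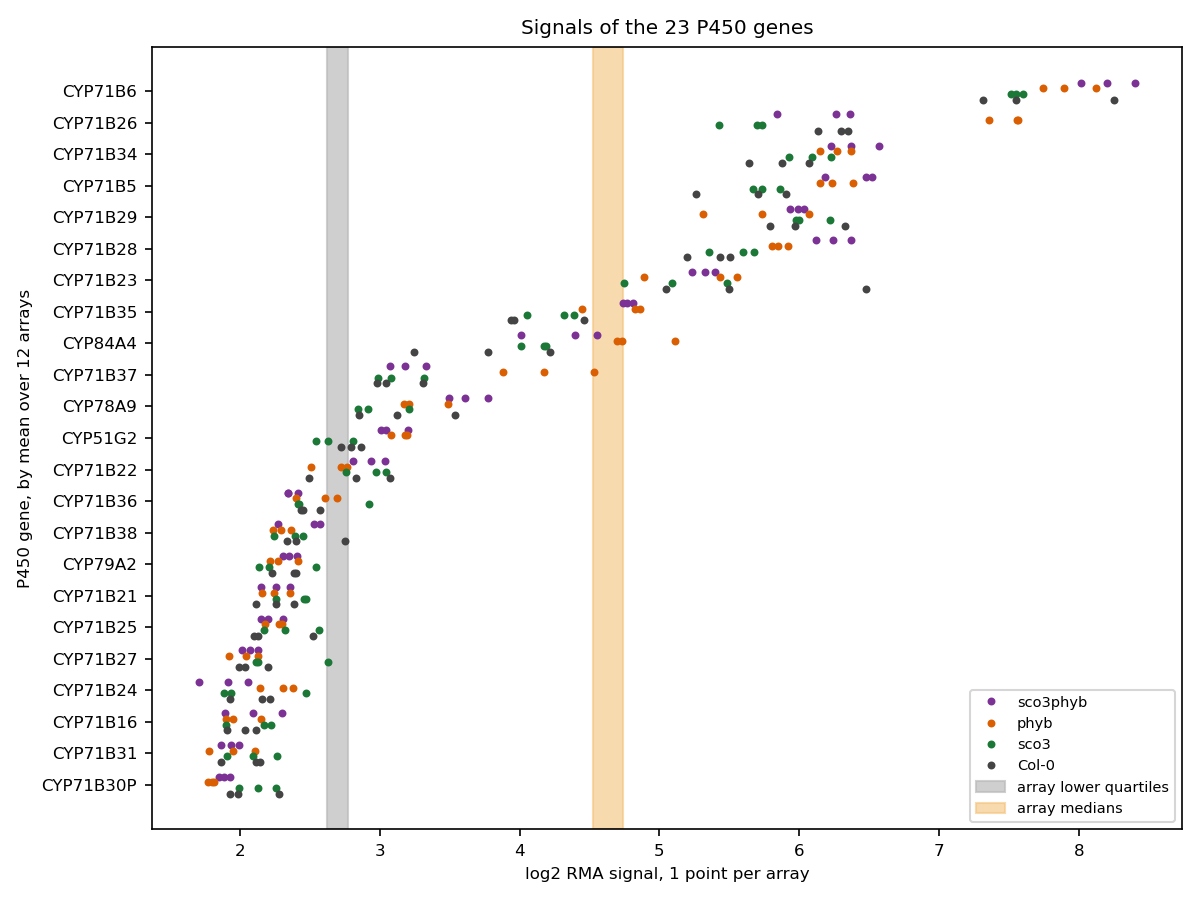
Log2 RMA signal of the 23 P450 genes, 1 point per array, coloured by genotype, with genes ordered by their mean over the 12 arrays. The bands mark the range of the arrays' lower quartiles (2.62 to 2.77) and medians (4.53 to 4.74); 7 genes lie above the median on every array.

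Between phyb and Col-0 the question was what differed with the phyb mutation where the sco3 mutation was absent. In phyb, 8 of the 23 P450 genes rose and 0 fell at a limma adjusted p under 0.05 over all probe sets. That share of 34.8% was near the background, since 33.4% of all 22746 probe sets were called in this contrast, 17.6% higher and 15.9% lower. After centring the arrays on their medians, 6 rose and 2 fell (CYP71B29 and CYP71B30P), with 42.4% of all probe sets called. The arrays of phyb had medians higher by 0.15 on the log2 scale than those of Col-0, while the median change over all probe sets was -0.06. The rises were those of CYP71B26, CYP84A4, CYP71B37, CYP71B5, CYP71B35, CYP71B28, CYP71B34 and CYP51G2. In whole seedlings, fewer cells of a type and less RNA per cell cannot be told apart.

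The phyb mutation in the sco3 background was read between sco3phyb and sco3, on 6 other arrays. There 7 P450 genes rose and 0 fell (30.4%, against 29.3% of all probe sets, 15.9% higher and 13.4% lower). After centring 3 rose and 4 fell, with 41.1% of all probe sets called. Before centring, the count was 4 without sco3 replicate 2 or without sco3phyb replicate 1 or 3, with 22.5% to 24.6% of all probe sets called. The genes called in phyb minus Col-0 and in sco3phyb minus sco3 shared CYP71B26, CYP71B28, CYP71B35, CYP71B5 and CYP51G2, which were 5 of 8 (62.5%) and 5 of 7 (71.4%). Over all probe sets, 2336 were called higher in both contrasts, 58.5% of those higher in the first and 64.8% of those higher in the second. Those 4 falls after centring were among dim genes, namely CYP71B30P, CYP71B36, CYP71B27 and CYP71B21. The arrays of sco3phyb had medians higher by 0.17 than those of sco3, with a median change over probe sets of -0.04. Across the 23 genes the 2 sets of differences had a Pearson correlation of 0.505. This describes genes measured on the same arrays, which are not independent replicates.

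**Figure D2:**
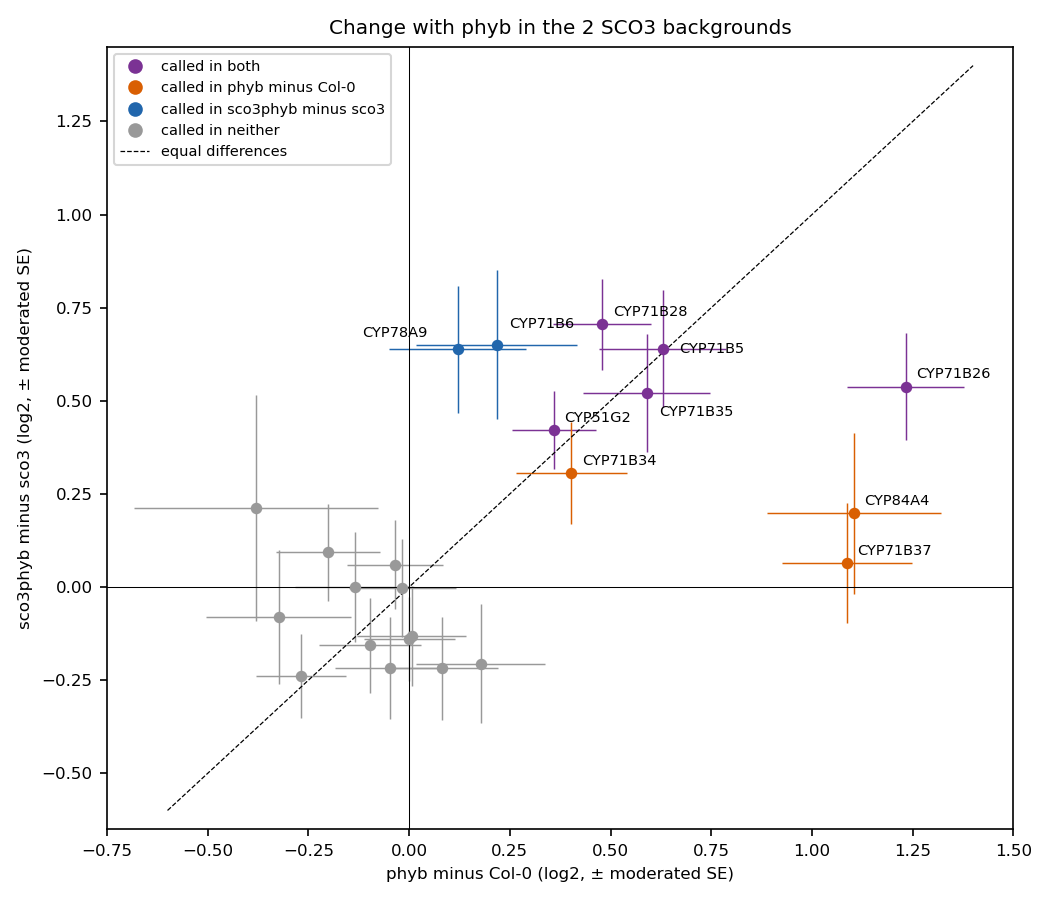
Log2 difference of phyb minus Col-0 (horizontal) and of sco3phyb minus sco3 (vertical) for each of the 23 P450 genes, with moderated standard errors and no array in common. The 5 genes called in both lie in the upper right, while CYP71B37 and CYP84A4 differ by 1.09 and 1.10 on the horizontal axis and by 0.06 and 0.20 on the vertical axis.

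CYP71B28 (AT1G13090) was higher in both genotypes with the phyb mutation. Its log2 signals were 6.24, 6.12 and 6.37 in sco3phyb, 5.80, 5.92 and 5.85 in phyb, 5.68, 5.60 and 5.35 in sco3, and 5.50, 5.19 and 5.44 in Col-0. The 3 sco3phyb arrays were the highest, the phyb arrays came next, and sco3 and Col-0 overlapped. The gene rose by 0.48 ± 0.12 in phyb against Col-0 (log2 difference and its moderated standard error, 3 arrays a genotype, limma adjusted p = 0.00845) and by 0.71 ± 0.12 in sco3phyb against sco3 (adjusted p = 8.28e-04). In sco3phyb against phyb it rose by 0.39 ± 0.12 (adjusted p = 0.0484). That last call was lost without any phyb or sco3phyb replicate or sco3 replicate 2 (adjusted p from 0.0599 to 0.176) with the replicate number as a block (0.0697), and with a trended, robust fit or quantile normalization (0.0554 and 0.0524).

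CYP71B5 (AT3G53280) was likewise higher with phyb. It had log2 signals of 6.52, 6.18 and 6.48 in sco3phyb, 6.38, 6.24 and 6.15 in phyb, 5.67, 5.73 and 5.87 in sco3, and 5.91, 5.71 and 5.26 in Col-0. Every array of the genotypes with phyb was above every array of the genotypes without it. The rise was 0.63 ± 0.16 in phyb against Col-0 and 0.64 ± 0.16 in sco3phyb against sco3 (adjusted p from 0.00774 to 0.00828), and the interaction was 0.01 with a 95% interval from -0.47 to 0.49. Its immediate measured neighbours on chromosome 3, CYP71B30P (AT3G53290) and CYP71B31 (AT3G53300), differed by -0.27 ± 0.11 and -0.10 ± 0.13 in phyb against Col-0 without a call. CYP71B31 is known to oxygenate the monoterpene linalool in flowers.

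CYP71B35 (AT3G26310) had log2 signals of 4.81, 4.74 and 4.77 in sco3phyb, 4.86, 4.45 and 4.83 in phyb, 4.39, 4.06 and 4.32 in sco3, and 4.46, 3.94 and 3.96 in Col-0. The phyb and Col-0 arrays overlapped through phyb replicate 2 and Col-0 replicate 1. The gene rose by 0.59 ± 0.16 in phyb against Col-0 (adjusted p = 0.0118), a call lost without phyb replicate 3, after quantile normalization and with phyb and Col-0 fitted alone (0.0505 to 0.0513). In sco3phyb against sco3 it rose by 0.52 ± 0.16 (adjusted p = 0.0258), a call lost without sco3 replicate 2 or any sco3phyb replicate (0.0574 to 0.0997), after centring (0.0993) and after quantile normalization (0.134). Beside it lies CYP71B34 (AT3G26300), with log2 signals of 6.23, 6.37 and 6.57 in sco3phyb, 6.27, 6.37 and 6.15 in phyb, 6.09, 6.23 and 5.93 in sco3, and 5.88, 6.07 and 5.64 in Col-0. Its Col-0 arrays lay below all arrays of both phyb genotypes, and sco3 overlapped with each of the others. It rose by 0.40 ± 0.14 in phyb against Col-0 (adjusted p = 0.0377) and by 0.53 ± 0.14 in sco3phyb against Col-0 (adjusted p = 0.0108). The first of these calls was lost after centring (0.155), without Col-0 replicate 1 or 3, phyb replicate 1 or 2 or sco3phyb replicate 2 (0.0514 to 0.127), and with array weights, quantile normalization or phyb and Col-0 fitted alone (0.0609 to 0.0689). The second was lost without sco3phyb replicate 3 (0.0551).

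CYP51G2 (AT2G17330), which RefSeq lists as a transcribed pseudogene, is related to the sterol demethylase CYP51G1. Its log2 signals were low, at 3.05, 3.01 and 3.20 in sco3phyb, 3.18, 3.08 and 3.20 in phyb, 2.63, 2.55 and 2.81 in sco3, and 2.86, 2.79 and 2.73 in Col-0. Arrays with and without phyb did not overlap. The rises were 0.36 ± 0.10 in phyb against Col-0 and 0.42 ± 0.10 in sco3phyb against sco3 (adjusted p from 0.00882 to 0.0183). Both calls were lost after centring each array (0.121 and 0.0801), and that in phyb also without phyb replicate 1 or 3 (0.0565 and 0.0636).

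**Figure D3:**
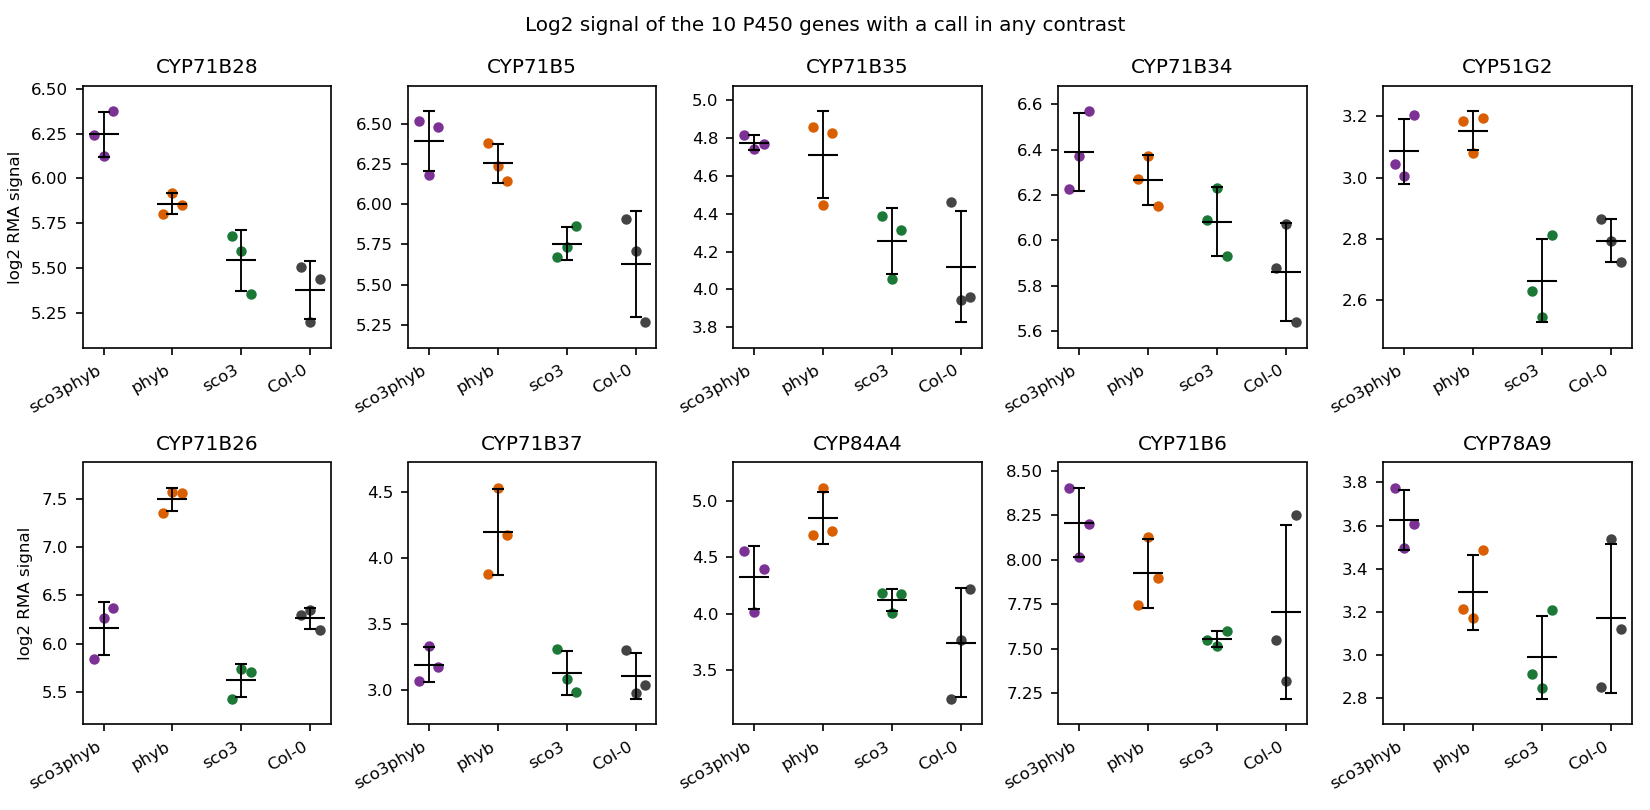
Log2 RMA signal of the 10 P450 genes called in any contrast (43.5% of 23, against 50.8% of all probe sets), 1 point per array for sco3phyb, phyb, sco3 and Col-0, with bars at the mean and SD of 3 arrays. The vertical axes do not start at 0 and differ between panels; CYP71B26 and CYP71B37 have their highest 3 arrays in phyb.

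CYP71B26 and CYP71B37 rose in phyb against Col-0 and fell in sco3phyb against phyb, while CYP84A4 rose in phyb without a called difference between sco3phyb and phyb. CYP71B26 (AT3G26290) had log2 signals of 5.84, 6.27 and 6.37 in sco3phyb, 7.36, 7.57 and 7.56 in phyb, 5.43, 5.73 and 5.70 in sco3, and 6.30, 6.35 and 6.14 in Col-0. The phyb arrays stood clear of all others, the sco3 arrays were the lowest, and sco3phyb overlapped with Col-0. The gene rose by 1.23 ± 0.14 in phyb against Col-0, which is 2.35-fold (adjusted p = 3.51e-05). In sco3phyb against phyb the log2 difference was -1.34 ± 0.14, a fall with an adjusted p of 6.24e-05. In sco3phyb against sco3 it rose by 0.54 ± 0.14 (adjusted p = 0.0134), a call lost after centring (0.0616) and without sco3 replicate 1 or sco3phyb replicate 2 or 3 (0.0554 to 0.0670). In sco3phyb against Col-0 it differed by -0.10, with a 95% interval from -0.42 to 0.21.

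CYP71B37 (AT3G26330) was the P450 gene whose change with phyb differed between the SCO3 backgrounds by the interaction test. It had log2 signals of 3.07, 3.33 and 3.18 in sco3phyb, 3.88, 4.53 and 4.18 in phyb, 3.32, 3.08 and 2.99 in sco3, and 3.31, 2.98 and 3.04 in Col-0. The phyb arrays were the highest and the other 3 genotypes overlapped. It rose by 1.09 ± 0.16 in phyb against Col-0 (adjusted p = 2.31e-04) and fell in sco3phyb against phyb, with a log2 difference of -1.003 ± 0.162 and an adjusted p of 0.00116. In sco3phyb against sco3 it differed by 0.06, with a 95% interval from -0.29 to 0.42. The interaction was -1.02 ± 0.23 (adjusted p = 0.0226), as 1 of 23 P450 genes called (4.35%) against 5.03% of all probe sets, 2.65% higher and 2.38% lower. Its adjusted p was 0.0551 without phyb replicate 3, 0.0588 without sco3 replicate 1, and 0.0593 and 0.0578 without sco3phyb replicates 1 and 3.

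CYP84A4 (AT5G04330), an enzyme of arabidopyrone synthesis that branches from the phenylpropanoid pathway, had log2 signals of 4.56, 4.01 and 4.39 in sco3phyb, 4.70, 5.11 and 4.73 in phyb, 4.19, 4.01 and 4.17 in sco3, and 3.25, 3.77 and 4.22 in Col-0. The phyb arrays were above all others, and the remaining genotypes overlapped. The gene rose by 1.10 ± 0.22 in phyb against Col-0, or 2.15-fold (adjusted p = 0.00163). In sco3phyb against phyb it differed by -0.53 ± 0.22 (adjusted p = 0.131), and its interaction of -0.91 ± 0.31 was not called (adjusted p = 0.117). Without Col-0 replicate 3, the highest Col-0 array for this gene, the interaction was -1.14 and called (adjusted p = 0.0198), as was sco3phyb against Col-0 (0.81, adjusted p = 0.00611, against 0.58 and 0.0621 with it). The contrast with Col-0 was also called without sco3phyb replicate 2 (adjusted p = 0.0400), with the dimmest probe sets left out (0.0487) and with array weights (0.0102), as was the interaction with array weights (0.0207). Without Col-0 replicate 1, the lowest Col-0 array, sco3phyb differed from Col-0 by 0.33 (adjusted p = 0.241) and the interaction was -0.66 (adjusted p = 0.171).

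The effect of the sco3 mutation with PHYB present was read from sco3 against Col-0. There CYP71B26 was the 1 P450 gene called of 23 (4.35%, against 4.97% of all probe sets, 2.81% higher and 2.16% lower). It fell, with a log2 difference of -0.64 ± 0.14 and an adjusted p of 0.0275, and the 3 sco3 arrays lay below the 3 Col-0 arrays. The call was lost without Col-0 replicate 1 or 2 or any sco3 replicate (adjusted p from 0.0506 to 0.0893) and when only the sco3 and Col-0 arrays were fitted (0.0984). The same mutation in the phyb background, sco3phyb against phyb, gave 3 calls (13.0%, against 14.9% of all probe sets, 7.76% higher and 7.18% lower), with CYP71B26 and CYP71B37 lower and CYP71B28 higher. The interaction of CYP71B26 was -0.69 ± 0.20 (adjusted p = 0.0732), so a difference of its change between the backgrounds was not shown. After quantile normalization that interaction was called (-0.78, adjusted p = 0.0494).

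The levels of root genes are given beside CYP71B26. EXPA7 and EXPA18, expansins of root hair cells, and PYK10, a root beta-glucosidase, are 3 of the 5 fixed root markers and those with a named probe set. EXPA7 and PYK10 fell in sco3phyb against phyb, with log2 differences of -1.22 ± 0.37 and -0.42 ± 0.11 and adjusted p of 0.0427 and 0.0251, and EXPA18 differed by -0.96 ± 0.38 (adjusted p = 0.119). Their mean log2 signals were 5.47, 6.37 and 11.5 in sco3phyb, and 6.69, 7.33 and 11.9 in phyb for EXPA7, EXPA18 and PYK10. In sco3 against Col-0 they differed by -1.29, -1.03 and -0.19 without a call (adjusted p from 0.0650 to 0.352). In phyb against Col-0, where CYP71B26 rose by 1.23, they differed by 0.34, 0.65 and 0.14 (adjusted p from 0.218 to 0.519). Col-0 replicate 3, high in the root hair genes, had the lowest Col-0 signal of CYP71B26. The part of root tissue in the change of CYP71B26 was not tested.

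**Figure D4:**
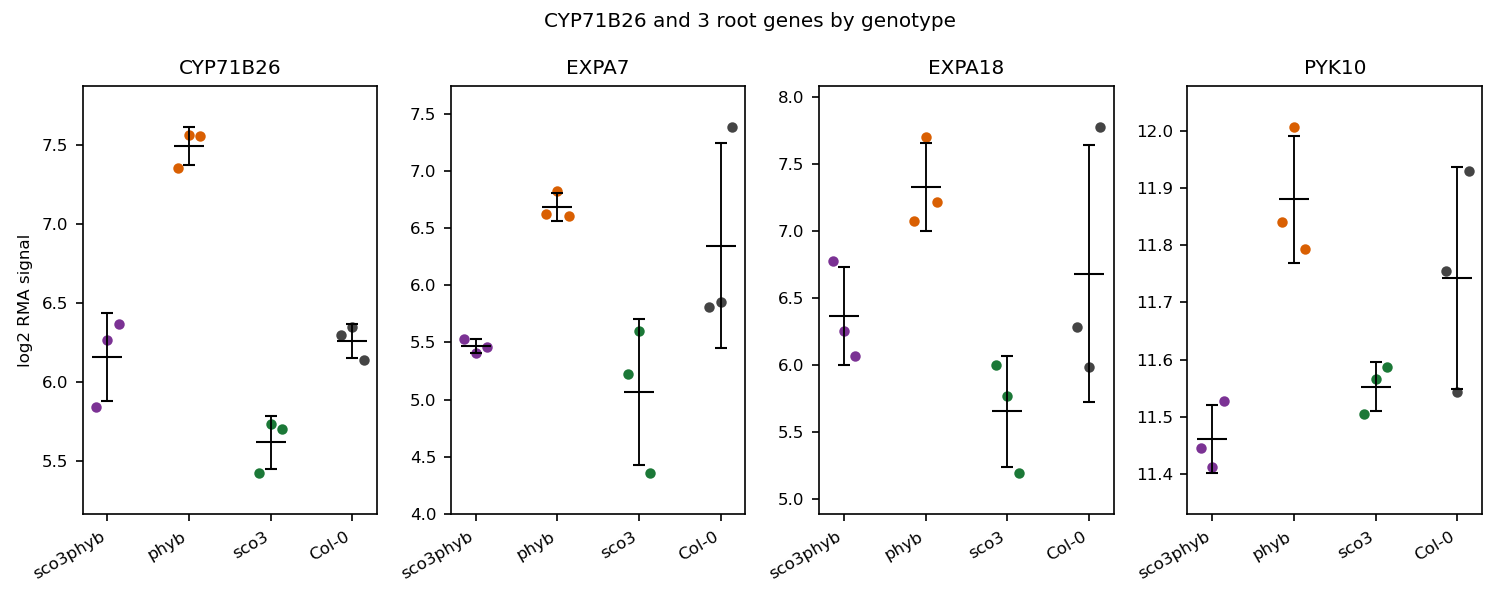
Log2 RMA signal of CYP71B26 and of the root genes EXPA7, EXPA18 and PYK10, 1 point per array with bars at the mean and SD of 3 arrays. In all 4 panels the sco3phyb mean lies below the phyb mean, and Col-0 replicate 3 is the highest array for EXPA7 and EXPA18 but the lowest Col-0 array for CYP71B26; the axes do not start at 0.

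In sco3phyb against Col-0, 4 of 23 P450 genes rose and 0 fell (17.4%, against 29.7% of all probe sets, 16.8% higher and 12.9% lower). They were CYP71B28 by 0.87 ± 0.12, CYP71B5 by 0.77 ± 0.16, CYP71B35 by 0.65 ± 0.16 and CYP71B34 by 0.53 ± 0.14 (adjusted p from 1.78e-04 to 0.0108). This contrast shares its Col-0 arrays with that of phyb against Col-0, where the same 4 genes were called. Without Col-0 replicate 3, 6 genes rose, with 30.6% of all probe sets called, and CYP84A4 was among these genes.

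CYP71B6 and CYP78A9 were called in sco3phyb against sco3 and in no other contrast. CYP71B6 (AT2G24180), which acts on indole-3-acetonitrile in the indole defence pathway, had log2 signals of 8.40, 8.02 and 8.20 in sco3phyb, 7.74, 8.13 and 7.90 in phyb, 7.55, 7.52 and 7.60 in sco3, and 7.55, 7.32 and 8.25 in Col-0. The sco3 arrays lay close together below all sco3phyb arrays, and the Col-0 arrays spanned nearly the whole range. It rose by 0.65 ± 0.20 (adjusted p = 0.0271), a call lost after centring (0.0643) and without any sco3 replicate or sco3phyb replicate 1 or 3 (0.0562 to 0.100). CYP78A9 (AT3G61880), a regulator of fruit and seed size, had log2 signals of 3.78, 3.50 and 3.61 in sco3phyb, 3.21, 3.17 and 3.49 in phyb, 2.91, 2.85 and 3.21 in sco3, and 2.85, 3.54 and 3.12 in Col-0. Its sco3phyb arrays lay above the sco3 and phyb arrays, and 1 Col-0 array reached into their range. It rose by 0.64 ± 0.17 (adjusted p = 0.0128, and 0.0521 and 0.0538 without sco3 replicate 2 and sco3phyb replicate 1). In phyb against Col-0 the 2 genes differed by 0.22 ± 0.20 and 0.12 ± 0.17, and their interactions of 0.43 and 0.52 were not called (adjusted p = 0.453 and 0.260).

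Of the CYP71B genes on chromosome 3, 11 form a row of measured neighbours, from CYP71B16 (AT3G26150) to CYP71B37 (AT3G26330). Of these 11 genes, 4 (36.4%) had a call in some contrast, against 50.8% of all probe sets. They were CYP71B26, CYP71B34, CYP71B35 and CYP71B37, in the last 5 places of the row. CYP71B36 (AT3G26320), between CYP71B35 and CYP71B37, differed by 0.08 ± 0.14 in phyb against Col-0 and by -0.20 ± 0.14 in sco3phyb against phyb. It lay above the lower quartile on 2 of 12 arrays, and CYP71B16, CYP71B21, CYP71B24 and CYP71B25, in the first places of the row, on 0 arrays. Of these dim genes none was called, though after centring CYP71B36 and CYP71B21 were called lower in sco3phyb than in sco3, by -0.39 and -0.31 (adjusted p = 0.0396 and 0.0454). CYP71B23 (AT3G26210) had a signal above the median on every array and differed by -0.57 ± 0.30 in sco3 and by -0.38 ± 0.30 in phyb against Col-0 without a call; its Col-0 arrays stood at 5.50, 5.05 and 6.48.

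**Figure D5:**
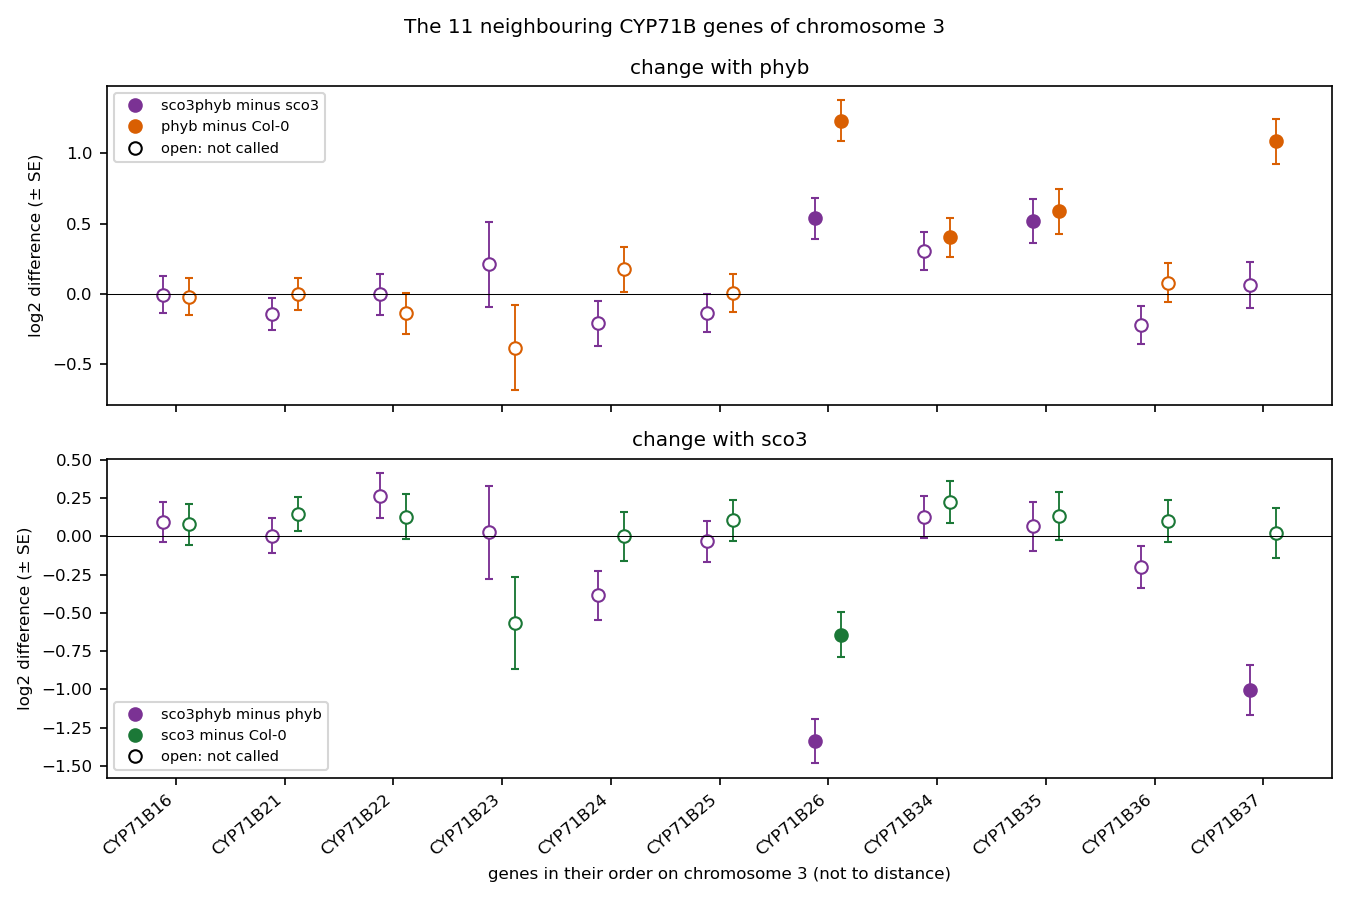
Log2 differences with moderated standard errors for the 11 neighbouring CYP71B genes in their order on chromosome 3, for the change with phyb (upper panel) and with sco3 (lower panel). Filled points are called at a limma adjusted p under 0.05: they lie at CYP71B26, CYP71B34, CYP71B35 and CYP71B37.

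The row lies on the chromosome that carries SCO3 (AT3G19570), 332 to 342 measured genes away from it. Among the 50 measured genes on each side of the row, P450 genes left out, 8 of 100 (8.00%) were called in sco3 against Col-0, compared with 3.96% of genes on the other chromosomes. In sco3phyb against phyb these shares were 20.0% and 13.3%. Linkage to SCO3 as a part of the changes in CYP71B26 and CYP71B37 was not tested.

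On chromosome 1 lie CYP71B27 (AT1G13070), a transcribed pseudogene in RefSeq, CYP71B28 and CYP71B29 (AT1G13100). While CYP71B28 rose with phyb in both backgrounds, CYP71B29 differed by -0.32 ± 0.18 in phyb against Col-0 and by -0.08 ± 0.18 in sco3phyb against sco3 (adjusted p = 0.188 and 0.772). Its phyb arrays spread from 5.31 to 6.07. With each array centred on its median CYP71B29 was called lower in phyb, by -0.47 (adjusted p = 0.0457). CYP71B27 stayed at or below 2.63 on every array.

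In all, 10 of the 23 genes (43.5%) had a call in some contrast and 13 had none, while 50.8% of all probe sets had one. The differences of these 13 genes in the 5 pairwise contrasts lay between -0.57 and 0.28, and the lowest adjusted p was 0.0858, that of CYP71B30P in phyb. Of the 10 called genes, 9 were among the 11 that passed the lower quartile on all arrays. CYP71B22 (AT3G26200) and CYP71B38 (AT3G44250), which passed it on 10 and 1 of the 12 arrays, differed by -0.14 ± 0.15 and -0.20 ± 0.13 in phyb against Col-0. CYP79A2 (AT5G05260), the first P450 of benzylglucosinolate synthesis, had group means between 2.30 and 2.36 and differed by -0.04 ± 0.12 in phyb.

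Other genes of pathways that involve P450s were read from pathway lists, and a gene of a list need not act with a measured P450. Of 93 listed P450 genes, 5 had a probe set annotated to them alone under a CYP symbol, in 5 of 15 lists. Other listed genes counted as measured when a probe set was annotated to them alone. Genes without one were not analysed, and the array may still carry probe sets for them. In the glucosinolate list, which holds CYP79A2, 2 of 13 other genes were measured and both rose in phyb against Col-0. In that contrast 33.4% of all probe sets were called, 17.6% higher and 15.9% lower. BCAT4, an aminotransferase of methionine chain elongation, rose by 3.72 ± 0.19, and UGT74B1, a glucosyltransferase of the core pathway, rose by 1.15 ± 0.14 (adjusted p = 5.09e-08 and 4.56e-05). The mean log2 signal of BCAT4 was 2.85 in Col-0, near the arrays' lower quartiles (2.62 to 2.77), and 6.57 in phyb. BCAT4 and UGT74B1 were lower in sco3phyb than in phyb, with log2 differences of -3.13 ± 0.19 and -0.83 ± 0.14 (adjusted p = 6.23e-07 and 0.00150). In sco3phyb against sco3 UGT74B1 rose by 0.62 ± 0.14 and BCAT4 differed by 0.53 ± 0.19 (adjusted p = 0.00453 and 0.0585). The interaction was called for BCAT4 (-3.20 ± 0.27, adjusted p = 4.84e-05) and not for UGT74B1 (-0.52 ± 0.20, adjusted p = 0.159). In the phenylpropanoid and flavonoid list, which holds CYP84A4, 2 of 16 other genes were measured. Both rose in phyb against Col-0. HCT, a transferase on the way to lignin, rose by 0.63 ± 0.14 (adjusted p = 0.00332). DFR, which reduces dihydroflavonols on the way to anthocyanins, rose by 1.59 ± 0.26 (adjusted p = 4.07e-04). The mean log2 signal of DFR was 2.68 in Col-0, also near the lower quartiles, and 4.26 in phyb. Between sco3phyb and phyb HCT differed by -0.03 ± 0.14 and DFR fell by 1.47 ± 0.26 (adjusted p = 0.932 and 0.00197). In sco3phyb against sco3 HCT rose by 1.04 ± 0.14 and DFR differed by 0.41 ± 0.26 (adjusted p = 1.25e-04 and 0.255). The camalexin and terpenoid lists had 0 measured genes beside their P450, and the organ growth list holds P450 genes alone. ATR3, a diflavin reductase and the measured gene of 3 listed electron donors, differed by -0.07 ± 0.17 in phyb without a call. The listed reductases ATR1 and ATR2 had no probe set annotated to them alone, so the supply of electrons to P450s cannot be read from ATR3.

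The lists without a measured P450 held 9 measured genes. In the coumarin list 2 of 3 rose and 1 fell in phyb against Col-0, where 33.4% of all probe sets were called. The feruloyl-CoA hydroxylase gene AT3G13610 rose by 1.44 ± 0.27 and COSY (AT1G28680), a coumarin synthase, by 1.25 ± 0.22 (adjusted p = 0.00123 and 6.87e-04). The scopoletin hydroxylase gene AT3G12900 differed by -0.38 ± 0.11 (adjusted p = 0.0197). Its mean log2 signals were 2.93 in Col-0 and 2.54 in phyb, near the arrays' lower quartiles (2.62 to 2.77), which limits what can be seen. AT3G13610 and COSY fell in sco3phyb against phyb, by 1.01 ± 0.27 and 0.78 ± 0.22 (adjusted p = 0.0242 and 0.0280). In sco3phyb against sco3 both rose, by 2.37 ± 0.27 and 1.23 ± 0.22 (adjusted p = 4.14e-05 and 9.35e-04). Their interactions of 0.93 and -0.02 were not called (adjusted p = 0.201 and 0.987). AT3G13610 also fell in sco3 against Col-0, by 1.93 ± 0.27 (adjusted p = 0.00318). The gibberellin receptor GID1C fell by 0.53 ± 0.18 in phyb against Col-0 (adjusted p = 0.0351) as 1 of 3 gibberellin genes. In sco3phyb against sco3, where 29.3% of all probe sets were called, GID1A fell by 0.94 ± 0.19 (adjusted p = 0.00292). There GID1C differed by -0.002 ± 0.179 without a call. The carotenoid genes Z-ISO and LYC rose in sco3phyb against Col-0 by 0.45 ± 0.12 and 0.60 ± 0.17 (adjusted p = 0.00944 and 0.0165) and were not called in phyb. In sco3phyb against Col-0, 29.7% of all probe sets were called.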

How the data were processed

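Each deposited value is a probe set's log2 expression after RMA. Per the submitters' processing notes, the authors used RMA and Partek; the sources give no version or setting. The 64 control probe sets were dropped and the other 22746 fitted in limma 3.58.1 (R 4.3.3) with 1 mean for each genotype, 8 residual degrees of freedom, lmFit and eBayes. The contrasts were 5 pairs of genotypes and their interaction, the change from phyb to sco3phyb less that from Col-0 to sco3. Two-sided p-values were adjusted by Benjamini-Hochberg across the probe sets of a contrast; a gene counted as called with an adjusted p under 0.05. Standard errors pool the spread over genotypes and are moderated across probe sets. The tests rest on the spread among arrays labelled biological replicates. The fit was checked on simulated data.

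The P450 genes, lists and tests were chosen with earlier results of these data known. By rule, the text names with values the largest called changes without overlap in each contrast, called interactions and the P450s of the pathway lists. It also names the brightest gene of a subfamily and up to 3 called other genes of a pathway. CYP71B35 in phyb, whose arrays overlap, the interaction values of uncalled genes, ATR3 and the other uncalled members were named after their values were seen. RefSeq (TAIR10.1) gave names, loci and gene order, and matched all 23. Deviations of arrays with equal replicate numbers correlated between -0.27 and 0.15 in 18 pairs, which shows no strong deviation in common. Whether equal numbers mark arrays handled together is not given in the sources. Alternatives were array weights, a trended and robust fit, centring, quantile normalization, a filter on the dimmest 40%, a replicate block, fits of single pairs of genotypes, and omission of each array.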

Additional observations from a re-analysis of the deposited data

Results flagged for a closer look

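CYP71B37 was singled out because the change between sco3phyb and phyb differed from that between sco3 and Col-0 by a test of the difference itself. The interaction was -1.02 ± 0.23 (moderated standard error, limma adjusted p = 0.0226), with differences of -1.003 ± 0.162 in sco3phyb against phyb and 0.02 ± 0.16 in sco3 against Col-0. The 3 phyb arrays were above the 9 others, and on each of the 12 arrays the gene's log2 signal (2.98 to 4.53) was below that array's median.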

How the results depend on the processing

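The 27 results recomputed for single P450 genes (the calls, the interactions of CYP71B37, CYP71B26 and CYP84A4, and CYP84A4 in sco3phyb against Col-0) kept their direction under the alternatives run. Other interactions were not recomputed. Of the 504 values, 442 kept their side of the threshold, 55 lost a call and 7 gained one. Counts of called P450 genes moved by over 1.5 times in these cases, given with the share of all probe sets called. For sco3 against Col-0, 0 in place of 1 were called when only those 2 genotypes were fitted (0.514% against 4.97%). With array weights, 7 in place of 4 were called for sco3phyb against Col-0 (33.8% against 29.7%). For sco3phyb against phyb, 5 in place of 3 were called when only those were fitted (22.1% against 14.9%). The interaction had 1 call (5.03%), against 2 with array weights (8.60%) and 2 after quantile normalization (5.06%). It had 0 with the dimmest 40% left out (9.18%), where 9 of the 23 genes were tested and CYP71B37 was not. The cause was not tested in the other cases. Leaving out 1 array gave 0 to 1 calls in sco3 against Col-0, 6 to 9 in phyb against Col-0, 3 to 6 in sco3phyb against Col-0, 2 to 4 in sco3phyb against phyb, 4 to 7 in sco3phyb against sco3 and 0 to 2 for the interaction. The shares of all probe sets called were then 1.74% to 6.43%, 26.2% to 36.4%, 23.4% to 30.6%, 9.75% to 21.4%, 22.5% to 35.3% and 2.91% to 6.96% in the same order. With the replicate block the counts were 1, 8, 4, 2, 7 and 1 in the same order (3.90%, 32.6%, 28.7%, 14.1%, 28.2% and 4.57% of all probe sets). CYP71B28 in sco3phyb against phyb was the call that the block changed (adjusted p = 0.0697). Choosing the dimmest probe set of a gene was not run, since each gene has 1. Signals near the lower quartile limit what can be seen for 12 of the 23 genes.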
